A study of Homo sapiens with 18 samples.

Results

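The REST corepressor and HIRA chaperone genes are 10 chromatin genes. They are REST, RCOR1, RCOR3 and KDM1A of the REST repressor complex, and HIRA, UBN1, CABIN1 and ASF1A of the HIRA histone chaperone. The others are the histone methyltransferase gene KMT5B (formerly SUV420H1) and SUZ12, a subunit gene of a complex that methylates histone H3. The members were all probe sets that the platform annotation assigns to one of these genes alone, under its present or former symbol, which gave 15 probe sets for the 10 genes among 19065 probe sets with a single gene (11963 genes). A probe set is a group of short probes on an Affymetrix HG-U133A array that reads one transcript or several transcripts of a gene. Of the 15, 14 were tested, since they and 13705 probe sets in all reached a signal of 50 on at least 3 of the 18 arrays. The REST probe set 204536_s_at did not, with signals of 1.00 to 5.99, and a further SUZ12 probe set was left out because the annotation shares it with SUZ12P1.

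The cells were SK-N-MC, a human neuroepithelioma line, kept in medium without pyruvate and given rotenone, an inhibitor of mitochondrial complex I, or its ethanol vehicle (0.05%). Doses of 0 (vehicle), 5 and 50 nM were held for 1 week (1w0 nM, 1w5 nM, 1w50 nM) or for 4 weeks (4w0 nM, 4w5 nM, 4w50 nM), which gave 6 groups with 3 arrays each. The labels call the lower dose non-lethal, whereas the methods call it marginally lethal, and both give more cell death at the higher dose. Each array carried RNA pooled from 5 dishes of 1 experiment, so the p-values reflect how far 3 experiments with a single cell line spread. In bulk RNA, fewer cells of a type and less RNA per cell cannot be told apart.

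REST is a zinc finger protein that binds RE1 elements and silences neuronal genes in non-neuronal cells and in neural progenitors. It recruits CoREST proteins (RCOR1 and its paralog RCOR3), which scaffold the histone demethylase KDM1A (LSD1) and histone deacetylases. The HIRA complex, built of HIRA, UBN1 and CABIN1, deposits a replication-independent variant of histone H3 that ASF1A hands to it, and HIRA with ASF1A is known for the heterochromatin foci of senescent cells. KMT5B adds further methyl groups to lysine 20 of histone H4 once a first is in place, and SUZ12 is a core subunit of Polycomb repressive complex 2 (PRC2), which methylates histone H3.

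All 10 genes had a promoter window in the RefSeq table (GRCh38.p14), running from 250 bases before to 50 bases after the annotated start. The windows of RCOR3 and HIRA are shown because both genes were higher at 4 weeks of 50 nM, and those of CABIN1 and UBN1 because probe sets of both were lower. Capitals mark matches, on either strand, to GGGCGG (SP1), CCGGAAGT (ETS), TGACGTCA (CREB), AAGATGGCG (YY1) and CCAAT (the CCAAT box). Matches that overlap or adjoin run together.
RCOR3, chr1:211259116-211259415 (+ strand): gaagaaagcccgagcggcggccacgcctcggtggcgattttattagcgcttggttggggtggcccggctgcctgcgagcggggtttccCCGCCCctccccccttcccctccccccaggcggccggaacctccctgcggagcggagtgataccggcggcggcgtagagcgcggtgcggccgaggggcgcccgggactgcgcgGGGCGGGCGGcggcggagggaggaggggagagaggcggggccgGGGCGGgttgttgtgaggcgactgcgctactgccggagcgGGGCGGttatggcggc
HIRA, chr22:19431684-19431983 (- strand): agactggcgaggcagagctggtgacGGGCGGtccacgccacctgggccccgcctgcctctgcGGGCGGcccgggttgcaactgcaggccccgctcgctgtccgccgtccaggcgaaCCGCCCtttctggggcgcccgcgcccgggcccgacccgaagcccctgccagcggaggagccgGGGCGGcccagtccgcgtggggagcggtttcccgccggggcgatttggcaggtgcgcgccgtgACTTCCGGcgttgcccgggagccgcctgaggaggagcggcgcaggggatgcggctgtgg
CABIN1, chr22:24011120-24011419 (+ strand): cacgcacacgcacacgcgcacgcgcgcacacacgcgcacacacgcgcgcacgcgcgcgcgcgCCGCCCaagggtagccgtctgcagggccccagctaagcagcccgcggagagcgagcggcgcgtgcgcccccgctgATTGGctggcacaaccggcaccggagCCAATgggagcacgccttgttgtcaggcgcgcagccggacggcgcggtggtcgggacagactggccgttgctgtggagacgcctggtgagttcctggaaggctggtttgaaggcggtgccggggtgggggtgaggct
UBN1, chr16:4847231-4847530 (+ strand): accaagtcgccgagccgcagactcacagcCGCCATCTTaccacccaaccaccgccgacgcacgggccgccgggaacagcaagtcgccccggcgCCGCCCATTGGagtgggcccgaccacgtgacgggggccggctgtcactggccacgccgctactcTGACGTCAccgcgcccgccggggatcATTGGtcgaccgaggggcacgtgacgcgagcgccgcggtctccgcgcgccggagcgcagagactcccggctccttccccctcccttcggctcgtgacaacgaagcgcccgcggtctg

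GGGCGG was present in all 10 member windows, against 44.6% of 27305 promoter windows of this length in the table. The windows were GC-rich, from 66.7% in KDM1A to 77.3% in KMT5B, against a median of 58.3% over the table. CCAAT was found in 5 of the 10 (RCOR1, ASF1A, UBN1, CABIN1 and SUZ12), against 35.7% of all windows, and UBN1 and CABIN1 each held 2 matches. It was not found in these windows of REST, RCOR3, KDM1A, HIRA and KMT5B. Among the 10, the ETS letters were found in HIRA alone (4.44% of all windows) and the CREB and YY1 letters in UBN1 alone (1.98% and 1.85% of all windows). The NRF1 letters GCATGCGC (3.27% of all windows) and the E2F letters TTTGGCGC or TTTCGCGC (1.18% of all windows) were in none of the 10. These matches describe the sequence alone.

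The labels of 2 of the 1-week arrays are in doubt. Published group means for 112 probe sets at 1w50 nM were met within 2% by the deposited values for 12 probe sets as labelled, and for 110 once 1w5 nM replicate 2 and 1w50 nM replicate 3 were exchanged. At 1w5 nM the same held for 8 of 75 as labelled and 73 of 75 after the exchange, and at 4 weeks 94.5% (4w5 nM) and 94.2% (4w50 nM) were met as labelled. The labels were kept here, and the counts of members called in comparisons that use these arrays are also given with both arrays exchanged and with both left out. Values per array, group means and marker sums at 1 week are as labelled. Array medians ran from 87.03 to 101.53, and arrays of the same group correlated at 0.908 to 0.98 in 1w0 nM and at 0.965 or higher in the other groups. The 18 hybridization control probe sets of the rotenone arrays at 4 weeks read 0.496 of the geometric mean on the other arrays. Summed over the 5 measured of 6 markers of the line, the signal was 8189 to 8659 on 4w0 nM, 7213 to 8472 on 4w5 nM and 5334 to 6378 on 4w50 nM arrays. In 4w50 nM against 4w0 nM, 3 of these 5 were lower (CD99 at log2 -0.55, PRKCB at -0.58 and CCND1 at -0.92), and NKX2-2 and ENO2 were not called. At 1 week this sum was 5363 to 8036, 7899 to 8849 and 8108 to 8331 at 0, 5 and 50 nM. The summed signal of 7 markers of substrate-adherent or fibroblast cells was 9859 to 10207 on 4w0 nM, 6123 to 7984 on 4w5 nM and 6598 to 7111 on 4w50 nM arrays. At 1 week it was 6177 to 6907, 9700 to 10528 and 9518 to 10044 at 0, 5 and 50 nM, so the rotenone arrays lay above the vehicle arrays, and in 4w0 nM it was also above 1w0 nM. Of these markers, FN1, the extracellular matrix fibronectin, was at 220.4 ± 271 in 4w50 nM and 1536 ± 28.4 in 4w0 nM (SD, n = 3 each). The 7 did not move together. Against 4w0 nM, 3 were lower and 4 not called in 4w50 nM, where COL1A1 averaged 949 against 942. At 5 nM, 3 were lower, 1 higher and 3 not called, and LUM averaged 365.5 in 4w5 nM against 102.6 in 4w0 nM. Summed over the 4 measured of 6 neuronal markers, the signal was 2830 to 3265 on 4w0 nM, 1275 to 3036 on 4w5 nM and 1687 to 2097 on 4w50 nM arrays. Of these 4, only TUBB3 was lower in 4w50 nM against 4w0 nM, at means of 1198 and 2595. The other 3 were not called, DCX averaging 614 and 336, and the median log2 fold change of the 4 was 0.02. Over 6 markers of cycling cells the sum was 7535 to 7879 on 4w0 nM, 7380 to 9788 on 4w5 nM and 5825 to 8093 on 4w50 nM arrays. The part of controls and markers in the member results of either week was not tested.

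**Figure D1:**
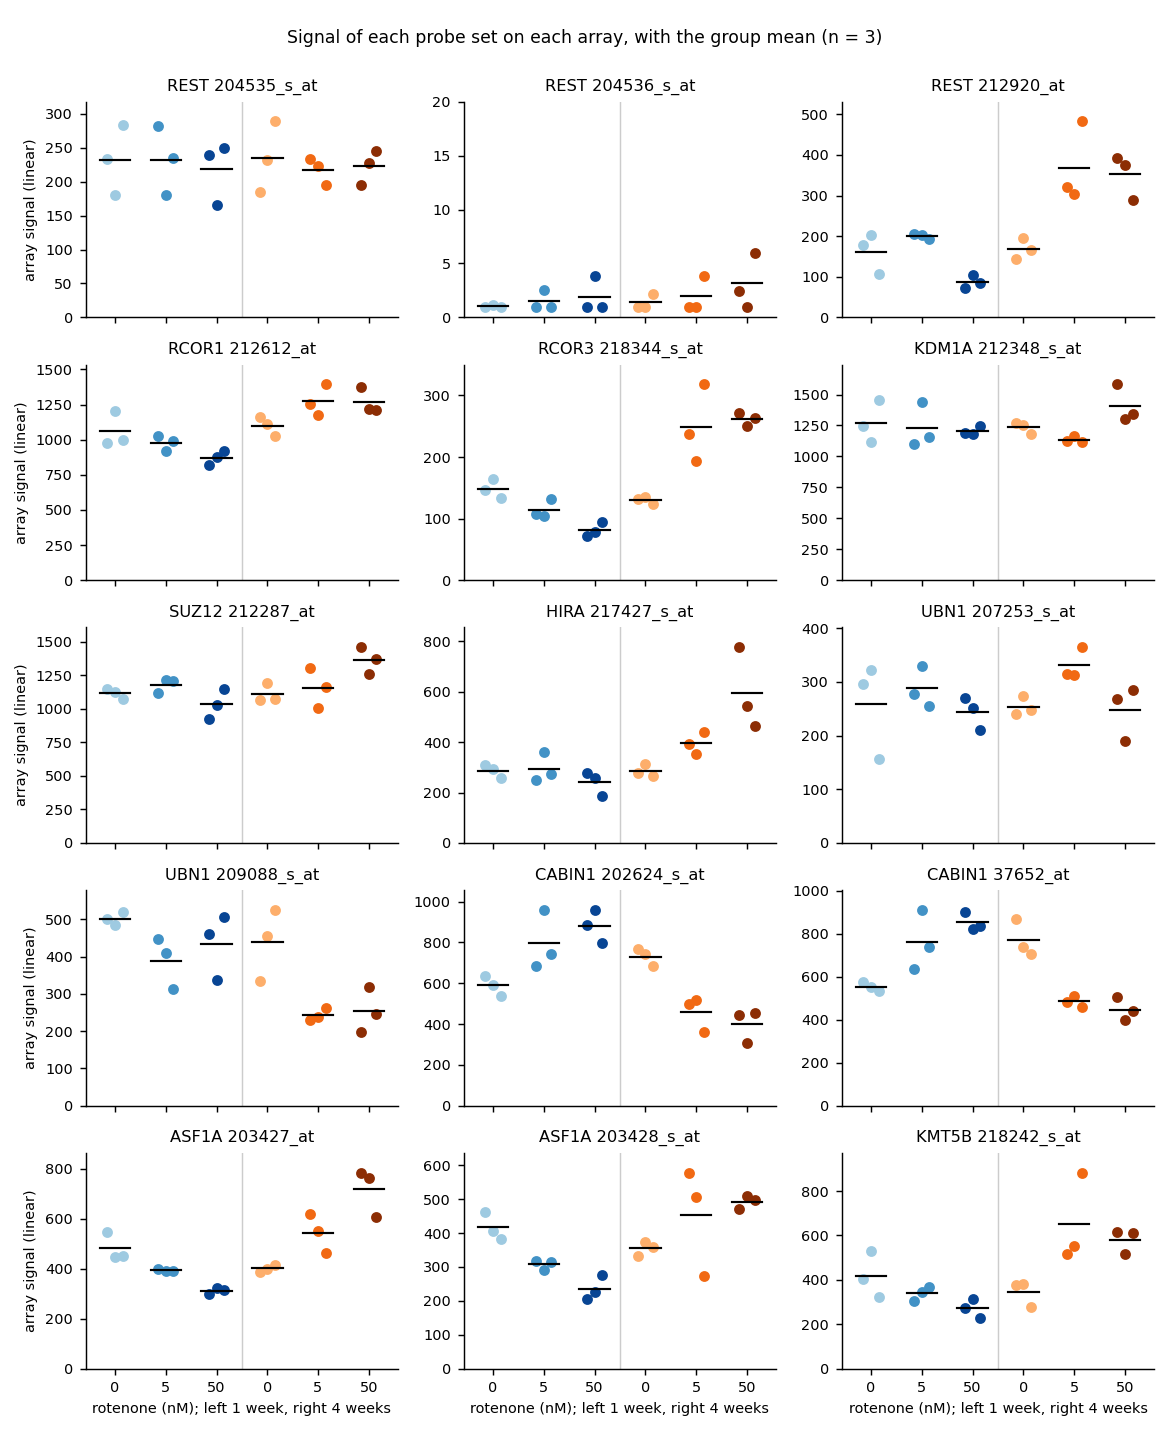
Linear array signal of each of the 15 member probe sets on each of the 18 arrays, by rotenone dose (nM) at 1 week (blue) and 4 weeks (orange), with the group mean as a bar (n = 3). RCOR3 and REST 212920_at stand highest on the rotenone arrays at 4 weeks, both CABIN1 probe sets stand lowest there, and REST 204535_s_at is level.

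At 4 weeks rotenone went with higher signal of RCOR3, KMT5B, 1 of 2 ASF1A probe sets and 1 REST probe set at both doses, of HIRA and SUZ12 at 50 nM, and with lower signal of CABIN1 and 1 UBN1 probe set at both doses. In 4w50 nM against 4w0 nM, 6 of the 14 probe sets were higher and 3 lower at an adjusted p below 0.05, against 22.9% higher and 18.1% lower of the 13705 tested. In 4w5 nM against 4w0 nM, 4 were higher and 3 lower, against 18.3% and 14.1%. The arrays of the groups did not overlap for 9 higher and 3 lower member probe sets in 4w50 nM (32.5% and 28.0% of all) and for 7 higher and 4 lower in 4w5 nM (30.2% and 22.6% of all). The median log2 fold change of the 14 was 0.25 in 4w50 nM and 0.25 in 4w5 nM, against 0.01 and 0.03 over all probe sets. Both comparisons share the 3 vehicle arrays, and their calls come from limma with Benjamini-Hochberg adjustment over all probe sets tested.

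REST, the DNA-binding repressor, was read differently by its probe sets. REST 212920_at gave 144, 196 and 165 in 4w0 nM, 322, 303 and 482 in 4w5 nM, and 392, 376 and 288 in 4w50 nM. Every rotenone array at 4 weeks lay above every vehicle array. The log2 fold change was 1.06 ± 0.23 (SE, 2.09-fold, adjusted p = 0.0012) in 4w50 nM and 1.11 ± 0.23 (2.16-fold, adjusted p = 0.0013) in 4w5 nM. REST 204535_s_at, which had the higher mean signal of the pair, gave 184, 233 and 289 in 4w0 nM, 233, 224 and 195 in 4w5 nM, and 195, 227 and 246 in 4w50 nM, with all groups overlapping. Its log2 fold change was -0.06 in 4w50 nM (95% interval -0.51 to 0.39, adjusted p = 0.84) and -0.10 in 4w5 nM (-0.54 to 0.35, adjusted p = 0.76). The rise therefore belongs to 1 of the 2 tested REST probe sets.

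RCOR3, the CoREST paralog, had a single probe set with 132, 136 and 123 in 4w0 nM, 237, 193 and 318 in 4w5 nM, and 272, 250.2 and 263 in 4w50 nM. The vehicle arrays lay within a narrow band below all 6 rotenone arrays. It rose 2.01-fold in 4w50 nM (log2 1.01 ± 0.16 SE, adjusted p = 0.00014) and 1.88-fold in 4w5 nM (0.91 ± 0.16, adjusted p = 0.00055).

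The scaffold RCOR1 averaged 1100.0 ± 68.6 under vehicle (4w0 nM), 1276 ± 110.1 at 4w5 nM and 1268 ± 90.8 at 4w50 nM (SD, n = 3 each). All rotenone arrays lay above the vehicle arrays, yet the differences did not pass the test, at log2 0.20 (95% interval -0.02 to 0.43, adjusted p = 0.14) in 4w50 nM and 0.21 (-0.02 to 0.44, adjusted p = 0.14) in 4w5 nM. KDM1A, the demethylase, averaged 1234 ± 48.9 under vehicle (4w0 nM), 1136 ± 26.0 at 4w5 nM and 1410.2 ± 151 at 4w50 nM. Its log2 fold change was 0.19 in 4w50 nM (-0.06 to 0.43, adjusted p = 0.21) and -0.12 in 4w5 nM (-0.36 to 0.13, adjusted p = 0.46), neither past the test.

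HIRA, the scaffold of its chaperone complex, gave 277, 313 and 266 in 4w0 nM, 393, 353 and 440.5 in 4w5 nM, and 777, 544 and 466 in 4w50 nM. The 3 doses did not overlap, and the 50 nM arrays were also the most spread. The rise was 2.04-fold in 4w50 nM (log2 1.03 ± 0.19 SE, adjusted p = 0.00045). In 4w5 nM the log2 difference of 0.47 (95% interval 0.06 to 0.87) had an adjusted p of 0.071, and in 4w50 nM against 4w5 nM the difference of 0.56 had 0.054.

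ASF1A, which hands histones H3 and H4 to HIRA, gave 387, 400.1 and 415 in 4w0 nM, 619, 551 and 463 in 4w5 nM, and 784, 762 and 609 in 4w50 nM on 203427_at. All rotenone arrays exceeded the vehicle arrays. It rose 1.78-fold in 4w50 nM (log2 0.83 ± 0.13 SE, adjusted p = 0.00011) and 1.35-fold in 4w5 nM (0.43 ± 0.13, adjusted p = 0.018). The 4w5 nM call was lost without 4w0 nM replicate 1, 4w0 nM replicate 2 or 4w5 nM replicate 1 (adjusted p of 0.062, 0.051 and 0.098) and under quantile normalization (0.32, adjusted p = 0.068). It was the only member called in 4w50 nM against 4w5 nM (log2 0.40, adjusted p = 0.046, against 9.53% of all probe sets higher), and that call was lost without any 1 of 4w5 nM replicates 2 and 3 or 4w50 nM replicates 1 and 2 (adjusted p of 0.098, 0.14, 0.19 and 0.16), as well as with the 2 doubtful 1-week arrays exchanged (0.082) or left out (0.064). The second ASF1A probe set, 203428_s_at, gave 332, 375 and 359 in 4w0 nM, 579, 508 and 275 in 4w5 nM, and 471, 510.4 and 497 in 4w50 nM. Its log2 difference in 4w50 nM was 0.47 (0.05 to 0.90, adjusted p = 0.068). In 4w5 nM it was 0.28 (adjusted p = 0.29), and 0.61 (adjusted p = 0.0043) without 4w5 nM replicate 3, the array at 275.

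Of the other subunits of the HIRA complex, CABIN1 on both probe sets and UBN1 on 209088_s_at alone differed in direction from HIRA. CABIN1 37652_at gave 867, 738 and 706 in 4w0 nM, 483, 512 and 461 in 4w5 nM, and 504, 397 and 442 in 4w50 nM. CABIN1 202624_s_at gave 769, 741 and 682, then 501, 516 and 361, then 442, 309 and 453 at the same doses. On both probe sets all rotenone arrays lay below all vehicle arrays. CABIN1 fell by 0.78 (37652_at, adjusted p = 0.00022) and by 0.88 (202624_s_at, adjusted p = 0.00059) on the log2 scale in 4w50 nM, which is 1.72-fold and 1.85-fold lower, and by 0.66 (adjusted p = 0.0013) and 0.69 (adjusted p = 0.0055) in 4w5 nM.

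UBN1 209088_s_at gave 335, 454 and 525 in 4w0 nM, 229.7, 238 and 262 in 4w5 nM, and 199, 319 and 245 in 4w50 nM. It fell by 0.79 ± 0.20 (SE, adjusted p = 0.0044) on the log2 scale in 4w50 nM and by 0.83 ± 0.20 (adjusted p = 0.0043) in 4w5 nM, and all rotenone arrays lay below the vehicle arrays. UBN1 207253_s_at did not follow it, with means of 254 under vehicle (4w0 nM), 331 at 4w5 nM and 248 at 4w50 nM. Its log2 difference was -0.06 in 4w50 nM (-0.52 to 0.41, adjusted p = 0.86) and 0.38 in 4w5 nM (-0.08 to 0.84, adjusted p = 0.20). The 4w5 nM arrays of 207253_s_at, at 313 to 365, lay above the vehicle arrays, at 241 to 274. It was called higher there with array weights (adjusted p = 0.038) and with only the arrays compared in the fit (adjusted p = 0.033). The fall of UBN1 thus rests on 1 of 2 probe sets.

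KMT5B, the histone H4 methyltransferase, gave 376, 381 and 279.5 in 4w0 nM, 516, 551 and 884 in 4w5 nM, and 618, 516 and 611 in 4w50 nM. The groups of rotenone arrays lay above vehicle, with 1 array of 4w5 nM well above the rest. It rose 1.69-fold in 4w50 nM (log2 0.76 ± 0.21 SE, adjusted p = 0.0079) and 1.84-fold in 4w5 nM (0.88 ± 0.21, adjusted p = 0.0039). SUZ12 gave 1062, 1188 and 1075 in 4w0 nM, 1304, 1007 and 1159 in 4w5 nM, and 1459.7, 1261 and 1373 in 4w50 nM. The 4w50 nM arrays lay above the vehicle arrays and overlapped those of 4w5 nM. The 1.23-fold rise of SUZ12 in 4w50 nM (log2 0.30 ± 0.11 SE) had an adjusted p of 0.039, which moved to between 0.076 and 0.15 when 4w0 nM replicate 1 or 3 or 4w50 nM replicate 1 or 3 was left out, and to 0.0502 under quantile normalization, 0.054 with the replicate block and 0.057 without the intensity trend, so that the call was lost each time. In 4w5 nM its log2 difference was 0.05 (adjusted p = 0.74).

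**Figure D2:**
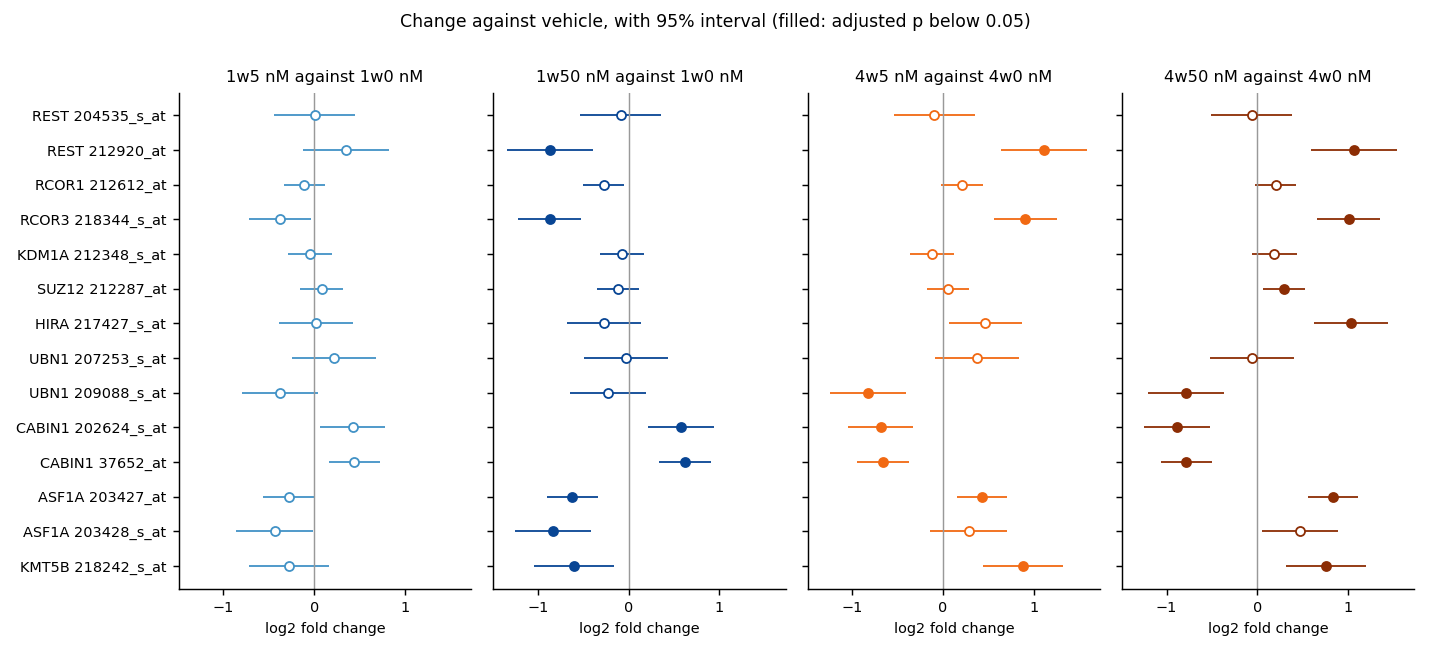
Log2 fold change against the vehicle of the same week for the 14 tested member probe sets (points) with 95% intervals (lines), from the fit over all 18 arrays. Filled points passed an adjusted p of 0.05, which 0, 7, 7 and 9 probe sets did from the left to the right panel.

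At 1 week of 50 nM, RCOR3, ASF1A, KMT5B and 1 REST probe set were lower than in 1w0 nM and CABIN1 was higher. At 5 nM no member was called. The result depends on which vehicle is used. In 4w0 nM against 1w50 nM, which also crosses weeks, limma called 2 of the 14, both higher in 4w0 nM. Over all probe sets 5.44% were higher and 0.197% lower there. Between 4w0 nM and 1w5 nM it called 0 of 13705 probe sets. The part of the 1w0 nM arrays in the 1-week calls was not tested. In 1w5 nM against 1w0 nM limma called none of the 14, against 6.68% of all probe sets in either direction, while 5 had an unadjusted p below 0.05. The methods' t-test at p below 0.05 with a fold above 2 also called 0, and without the fold rule 1 member had a p below 0.05. In 1w50 nM against 1w0 nM, 5 were lower and 2 higher, against 13.6% and 8.23% of all probe sets. The median log2 fold change of the 14 was -0.25 in 1w50 nM and -0.02 in 1w5 nM, against -0.01 and 0.06 over all probe sets. Between the doses, 1w50 nM against 1w5 nM, limma called no member and 0.0073% of all probe sets (1 lower), and 3 members had an unadjusted p below 0.05. With the 2 doubtful arrays exchanged or left out, 37 or 126 probe sets were lower and none higher, again with no member called.

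RCOR3 gave 146, 164 and 134 in 1w0 nM, 108, 104 and 131 in 1w5 nM, and 71.4, 78.3 and 94.0 in 1w50 nM. The 50 nM arrays lay below all others of that week, and RCOR3 fell by 0.87 ± 0.16 (SE, adjusted p = 0.0017) on the log2 scale, 1.83-fold. ASF1A 203427_at gave 545, 446 and 451 in 1w0 nM, 400.0, 389 and 392 in 1w5 nM, and 299, 321 and 316 in 1w50 nM, in 3 bands without overlap as labelled. With the 2 doubtful arrays exchanged, the 5 nM group would hold the value of 316 and the 50 nM group that of 389, so these would overlap. ASF1A fell by 0.62 (203427_at, adjusted p = 0.0037) and by 0.83 (203428_s_at, adjusted p = 0.0074) in 1w50 nM.

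CABIN1 was higher at 1 week, with 574, 555 and 534 in 1w0 nM, 636, 912 and 737 in 1w5 nM, and 902, 822 and 839 in 1w50 nM on 37652_at. The 1w0 nM arrays also stood low next to vehicle at 4 weeks, with means of 771 ± 85.2 in 4w0 nM and 554 ± 19.7 in 1w0 nM (SD, n = 3 each, log2 0.47, adjusted p = 0.064), and the 1w50 nM mean lay 0.15 above 4w0 nM on the log2 scale (adjusted p = 0.55). All rotenone arrays at 1 week exceeded the vehicle arrays of that week, and the log2 fold changes in 1w50 nM were 0.62 (adjusted p = 0.0039) for 37652_at and 0.58 (adjusted p = 0.022) for 202624_s_at. For 202624_s_at the adjusted p was 0.071 without 1w50 nM replicate 1 and 0.088 without 1w50 nM replicate 2. In 1w5 nM, 37652_at had a log2 difference of 0.44 (adjusted p = 0.055, and 0.034 without 1w5 nM replicate 1).

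REST 212920_at gave 177, 202 and 107 in 1w0 nM, 206, 202 and 192 in 1w5 nM, and 71.6, 103 and 84.6 in 1w50 nM. The 50 nM arrays lay below all others of that week. It fell by 0.87 (adjusted p = 0.011) on the log2 scale in 1w50 nM, with adjusted p of 0.056 without 1w0 nM replicate 2 and 0.065 without 1w50 nM replicate 1. KMT5B fell by 0.60 at an adjusted p of 0.0496, and leaving out any 1 of 1w0 nM replicates 1 and 2 or of the 1w50 nM replicates gave between 0.057 and 0.21. HIRA (-0.27, adjusted p = 0.33), RCOR1 (-0.28, adjusted p = 0.077), KDM1A (-0.07, adjusted p = 0.70), SUZ12 (-0.11, adjusted p = 0.49), both UBN1 probe sets and REST 204535_s_at were not called in 1w50 nM.

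With 1w5 nM replicate 2 and 1w50 nM replicate 3 exchanged, 5 of the 7 calls in 1w50 nM against 1w0 nM stood. RCOR3 was at -0.82 (adjusted p = 0.0041), ASF1A at -0.52 (203427_at, adjusted p = 0.023) and -0.81 (203428_s_at, adjusted p = 0.012), and CABIN1 at 0.66 (37652_at, adjusted p = 0.0016) and 0.67 (202624_s_at, adjusted p = 0.0064). REST 212920_at was at -0.45 (adjusted p = 0.41) and KMT5B at -0.40 (adjusted p = 0.22). With both arrays left out, 6 calls stood, REST 212920_at among them at -0.86 (adjusted p = 0.035), and KMT5B was at -0.48 (adjusted p = 0.18). The REST call at 1 week of 50 nM thus depended on the group given to 2 arrays, while no member was called in 1w5 nM under any of the 3 groupings.

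**Figure D3:**
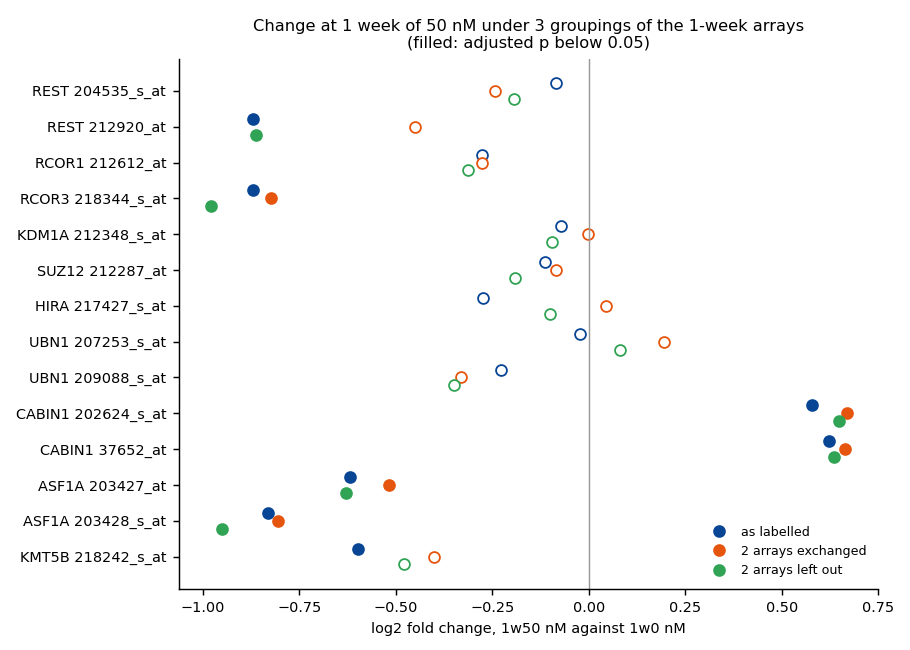
Log2 fold change of the 14 tested member probe sets in 1w50 nM against 1w0 nM with the arrays as labelled (blue), with 1w5 nM replicate 2 and 1w50 nM replicate 3 exchanged (orange) and with both left out (green). Filled points passed an adjusted p of 0.05, and REST 212920_at and KMT5B lose the call when the arrays are exchanged.

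The effect of 50 nM differed between the weeks for most members. The 4-week effect minus the 1-week effect was called for 10 of the 14 probe sets, 8 higher and 2 lower, against 25.6% higher and 19.7% lower of all probe sets. It was 1.93 (95% interval 1.26 to 2.61, adjusted p = 0.00011) for REST 212920_at, 1.88 (1.39 to 2.37, adjusted p = 9.0e-06) for RCOR3, 1.45 for ASF1A 203427_at, 1.36 for KMT5B and 1.31 for HIRA, each on the log2 scale. It was -1.41 and -1.46 for the CABIN1 probe sets. For RCOR1 it was 0.48 (adjusted p = 0.017), although neither week alone was called. For 5 nM the difference between weeks was called for 5 probe sets, 3 higher (RCOR3, KMT5B and ASF1A 203427_at) and 2 lower (both of CABIN1), against 15.4% and 16.8% of all probe sets. The SUZ12 difference of 0.41 at 50 nM (adjusted p = 0.040) lost its call in 13 of 26 alternatives. With the 2 arrays exchanged, 9 were called at 50 nM, SUZ12 being lost (adjusted p = 0.065), and 6 at 5 nM, HIRA being gained (0.77, adjusted p = 0.036). With both arrays left out, 10 were called at 50 nM and 5 at 5 nM. The 1w0 nM arrays enter each of these differences.

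**Figure D4:**
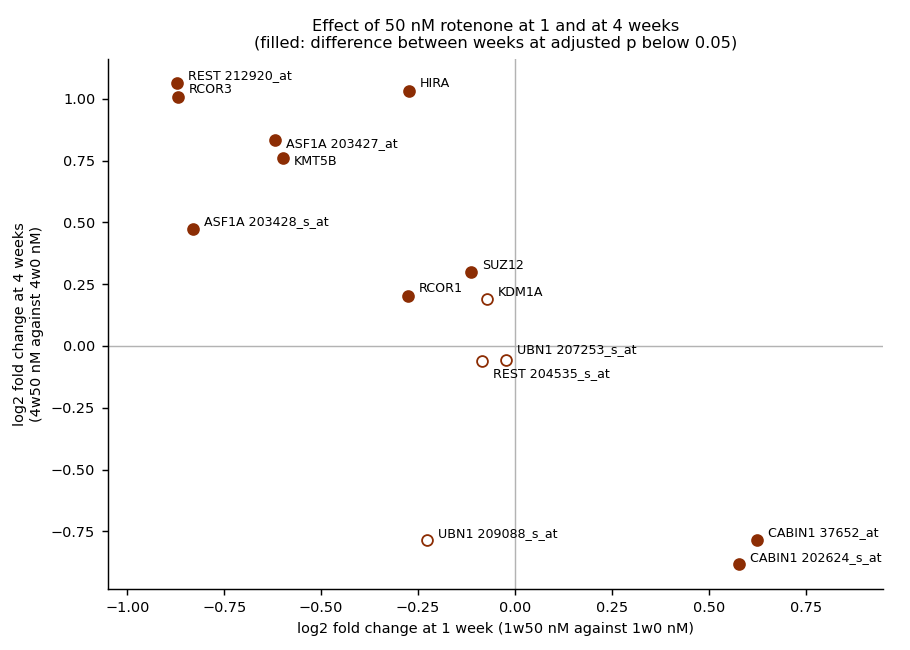
Log2 fold change under 50 nM rotenone at 4 weeks (vertical axis) against that at 1 week (horizontal axis) for the 14 tested member probe sets. Filled points passed the test of the difference between weeks, and CABIN1 alone sits higher at 1 week and lower at 4 weeks.

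Under vehicle, in 4w0 nM against 1w0 nM, limma called no member, against 3.26% of all probe sets in either direction, while 1 (CABIN1 37652_at) had an unadjusted p below 0.05. The methods' t-test with its rule of a fold above 2 called 0, and without that rule 2 members had a p below 0.05. Ordering the 6 group levels of each of the 14 probe sets gives 70 neighbouring pairs, of which 5 differed at an adjusted p below 0.05. REST 212920_at had a step between 1w50 nM, its lowest group, and 1w0 nM, and another between 1w5 nM and 4w50 nM (0.80, adjusted p = 0.0081). RCOR3 had its lowest mean (81.2) in 1w50 nM and its highest (262) in 4w50 nM, with a step of 0.73 (adjusted p = 0.0042) between 1w0 nM and 4w5 nM. UBN1 209088_s_at had its step between 4w50 nM and 1w5 nM (0.62, adjusted p = 0.017), and ASF1A 203427_at between 4w5 nM and 4w50 nM. No neighbouring levels of the other 10 probe sets passed the test. With the 2 doubtful arrays exchanged, 3 of the 70 pairs differed. They were REST 212920_at between 4w0 nM and 4w50 nM (1.06, adjusted p = 0.025), RCOR3 between 1w0 nM and 4w5 nM (adjusted p = 0.0084) and UBN1 209088_s_at between 4w50 nM and 1w50 nM (0.67, adjusted p = 0.010). The highest group mean of a tested probe set was between 1.08 times (REST 204535_s_at) and 4.27 times (REST 212920_at) its lowest.

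Genes that work with the members were taken from 5 lists, each gene read by its brightest probe set, of which 23.3% were higher and 17.6% lower among 9162 genes in 4w50 nM against 4w0 nM. Of 19 REST and CoREST partners, 15 were tested, with 8 higher and 3 lower and a median log2 fold change of 0.32, against 0.02 over all genes. CDYL, a chromodomain corepressor that links REST to a histone methyltransferase, averaged 454 ± 50.5 in 4w50 nM and 229.5 ± 24.1 in 4w0 nM (SD, n = 3 each, log2 0.98, adjusted p = 0.00037). PHF21A, which reads unmethylated histone H3 for the KDM1A complex, was at log2 0.83 (adjusted p = 0.0017). HMG20B, a DNA-binding subunit of that complex, fell by 1.00 (adjusted p = 0.0003), and EHMT1, a histone H3 methyltransferase, fell by 0.67 at an adjusted p of 0.047. The EHMT1 signal was low, at means of 56.4 in 4w50 nM and 89.6 in 4w0 nM. RCOR2, the third CoREST paralog, had no probe set of its own.

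Of 20 neuronal genes known to carry RE1 elements, 10 were tested, with 5 lower, 5 not called and a median of -0.63. STMN3, a tubulin-binding stathmin, averaged 25.9 ± 1.77 in 4w50 nM and 93.0 ± 5.37 in 4w0 nM (log2 -1.85, adjusted p = 0.0035). TUBB3, neuronal beta tubulin, fell by 1.12 (adjusted p = 0.0013), GRIN1, an NMDA receptor subunit, by 0.89 (adjusted p = 0.00037) and CHGA, chromogranin A, by 0.79 (adjusted p = 0.0076). Signals were low, with GRIN1 at means of 52.6 in 4w50 nM and 96.3 in 4w0 nM, and CHGA at 30.8 and 51.5. In 4w50 nM, STMN3 and CHGA thus lay below the filter signal of 50 and were tested through their signal in other groups. The count of lower genes therefore rests in part on signals near the filter. The neuronal marker list shares TUBB3 with this list, and 8 of the 20 genes fell below the signal filter.

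Of 15 genes of histone H3 and its chaperones, 13 were tested, with 2 higher and 4 lower. ATRX, a remodeller that deposits the same H3 variant at repeats with DAXX, rose by 1.13 (adjusted p = 1.7e-05). ASF1B, the paralog of ASF1A that serves replicating cells, averaged 249.8 ± 114 in 4w50 nM and 578 ± 46.2 in 4w0 nM (log2 -1.30, adjusted p = 0.0017), the opposite direction to ASF1A. CHAF1A and CHAF1B, subunits of the replication-coupled assembly factor CAF-1, fell by 0.72 (adjusted p = 0.0058) and 0.52 (adjusted p = 0.043). UBN2, the paralog of UBN1, had no probe set of its own.

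Of 21 Polycomb genes, 15 were tested, with 3 higher (PHC1 at log2 0.68, PHF1 at 0.58 and JARID2 at 0.51) and 1 lower (CBX2 at -0.92, adjusted p = 0.024). PHF1 and JARID2 are accessory subunits of the SUZ12 complex, whereas PHC1 and CBX2 belong to Polycomb repressive complex 1. Of 10 genes of histone H4 lysine 20 methylation and the pocket proteins, 6 were tested, with 4 higher, 2 not called and a median of 0.65. RBL2 averaged 381 ± 18.9 in 4w50 nM and 177 ± 18.8 in 4w0 nM (log2 1.11, adjusted p = 1.9e-05), with RBL1 at 0.91, RB1 at 0.67 and L3MBTL1, a reader of methylated histone H4, at 0.62. Signals of L3MBTL1 were low, at means of 75.7 in 4w50 nM and 48.5 in 4w0 nM, as were those of RBL1, at 115.8 and 61.2. The retinoblastoma family members RB1, RBL1 and RBL2 restrain cell cycle genes. KMT5C, the paralog of KMT5B, had no probe set of its own.

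**Figure D5:**
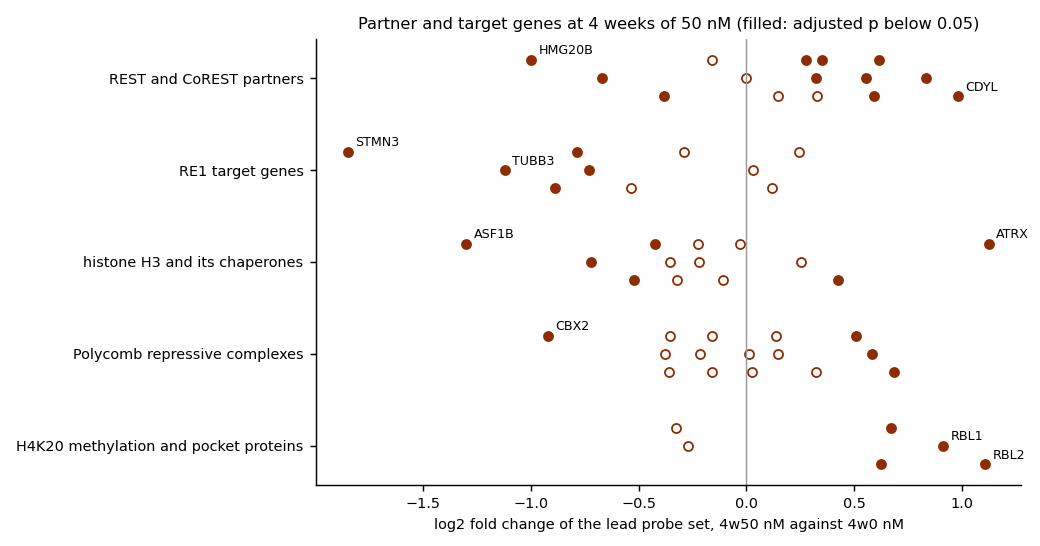
Log2 fold change in 4w50 nM against 4w0 nM of the brightest probe set of each tested gene in 5 lists of partner and target genes. Filled points passed an adjusted p of 0.05, and called genes beyond 0.9 in size are named, among them ATRX and RBL2 on the higher side and STMN3 and ASF1B on the lower.

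Of 9161 other genes compared with each member over the 18 arrays, those whose log2 signal followed RCOR3 most closely were PDS5A (Pearson r = 0.981), NIPBL (0.979) and CDKN2AIP (0.977). For REST 212920_at, added after its values were seen because it is not the brightest REST probe set, they were ELF1 (0.975), ERBIN (0.972) and DMXL1 (0.972), while REST 204535_s_at, the level probe set, reached only 0.725 (B4GALNT1). JADE3 (0.968), LRIG1 (0.964) and RALGAPA1 (0.953) followed HIRA, and PIK3C3 (0.953), GOLPH3L (0.953) and NBEA (0.951) followed KMT5B. The group means of these genes correlated with those of RCOR3, REST 212920_at, HIRA and KMT5B at 0.979 or higher over the 6 groups, whereas B4GALNT1 and REST 204535_s_at had -0.24 there, so that pair was alike over arrays and not over doses and weeks. Since the genes were picked on the same arrays, the high values of the group means are no separate evidence.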

How the data were processed

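Total RNA of the 18 pooled samples was hybridized to 18 Affymetrix HG-U133A arrays. The authors deposited linear intensity values, normalized and summarized as model-based expression indexes in dChip. The version and the normalization method are not given in the sources used here. Of 22283 probe sets, 19065 carry 1 gene, 1043 several and 2107 none, and 68 are controls. Values under 16 were set to 16 and log2 transformed, and probe sets with a single gene and a signal of 50 or more on at least 3 arrays were tested. One limma model (version 3.58.1, R 4.3.3) with 6 group means and an intensity trend was fitted over all arrays (12 residual degrees of freedom), with Benjamini-Hochberg adjustment over 13705 probe sets. Folds understate changes near the floor. The brightest probe set stood for each list gene, and from every list the 4 called genes, at most, that changed most in 4w50 nM against 4w0 nM were named, with paralogs of members. The script was tested on simulated data. The members and lists were chosen with earlier results of these data known. The number of arrays limits the precision, and no 2 of the arrays held identical values. Promoters are RefSeq windows (GRCh38.p14), and the alternatives tried are given with the closing observations.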

Additional observations from a re-analysis of the deposited data

Results flagged for a closer look

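A test of the difference between the 4-week and the 1-week effect of rotenone, each against the vehicle of its own week, singled out 15 values. At 50 nM the 4-week effect minus the 1-week effect, on the log2 scale, was 1.93 for REST 212920_at, 1.88 for RCOR3, 1.45 for ASF1A 203427_at, 1.30 for ASF1A 203428_s_at, 1.36 for KMT5B, 1.31 for HIRA, 0.48 for RCOR1 and 0.41 for SUZ12. It was -1.46 for CABIN1 202624_s_at and -1.41 for CABIN1 37652_at. At 5 nM it was 1.28 for RCOR3, 1.16 for KMT5B and 0.71 for ASF1A 203427_at, and -1.11 for both CABIN1 202624_s_at and CABIN1 37652_at. The adjusted p was highest for SUZ12 at 50 nM (0.040), and that call was lost in 13 of 26 alternatives, with adjusted p of up to 0.12. The 1-week vehicle arrays enter each of these values, and the 4-week rotenone arrays differ from the rest in their hybridization controls.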

How the results depend on the processing

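Each of 112 log2 fold changes of member probe sets was recomputed under up to 26 alternatives, giving 2376 values. Of these, 2280 kept their side of the threshold, 55 lost a call and 41 gained one. None that was called in the main or the alternative fit reversed its direction. Values called in neither fit could change sign and were counted among the 2280. In 1w50 nM against 1w0 nM the count of 7 called became 3 with 1 lead probe set per gene, which drops 4 probe sets, 3 of them called, and under which KMT5B also lost its call (adjusted p = 0.052), and 3 with only the arrays compared in the fit. The count of 7 in 4w5 nM against 4w0 nM became 11 with array weights, and 5 for the difference between weeks at 5 nM became 8 with median scaling. The single call in 4w50 nM against 4w5 nM became 2 with log2 of signal plus 16, 2 with median scaling, 2 with a filter of 100, 3 with quantile normalization, 5 with array weights, 0 with only the arrays compared and 0 with 1w5 nM replicate 2 and 1w50 nM replicate 3 exchanged. The methods' t-test at p below 0.05 with a fold above 2 gave 0 in 1w50 nM, 1 in 4w5 nM, 3 in 4w50 nM and 0 in 4w50 nM against 4w5 nM, after Benjamini-Hochberg adjustment with the same fold rule 0, 0, 2 and 0, and after adjustment with no fold rule 0, 0, 4 and 0. The cause of these moves was not tested unless named. Shares over all probe sets are not given for the alternatives, here or above. A changed count of members therefore cannot be told from a change in calling over the whole array. Leaving out 1 array at a time gave 0 to 1 call in 1w5 nM, 4 to 8 in 1w50 nM (4 without 1w50 nM replicate 1), 6 to 8 in 4w5 nM, 8 to 9 in 4w50 nM, 0 to 2 in 4w50 nM against 4w5 nM, 5 to 7 between weeks at 5 nM and 9 to 11 at 50 nM. Equal replicate numbers as labelled did not pair the arrays throughout, since 11 of 45 correlations of same-numbered deviations were over 0.1 (range -0.503 to 0.357). Whether the numbers mark the experiments is not stated, so pairing by experiment was not tested. ASF1A 203427_at in 4w5 nM was lost under quantile normalization (adjusted p = 0.068). With the replicate block 6 probe sets were called in 1w50 nM, 7 in 4w5 nM, 8 in 4w50 nM and 9 between weeks at 50 nM, KMT5B at 1w50 nM (adjusted p = 0.067) and SUZ12 at 4w50 nM (adjusted p = 0.054) being lost. Values at the floor of 16 have no order on these arrays.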

Other observations

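Partner genes outside the members also moved at 1 week. ASF1B, the replication-linked paralog of ASF1A, was higher in 1w50 nM (log2 1.49, adjusted p = 0.0019) and in 1w5 nM (1.58, adjusted p = 0.0034) against 1w0 nM, and higher in vehicle at 4 weeks than at 1 week (1.25, adjusted p = 0.020), so the 1w0 nM arrays stood low for this gene. ATRX, RB1 and RBL1, all higher in 4w50 nM, were lower in 1w50 nM, at -0.65 (adjusted p = 0.0040), -0.57 (adjusted p = 0.022) and -0.60 (adjusted p = 0.022). For ATRX the 1w0 nM arrays stood high, with means of 767 in 1w0 nM, 488 in 1w50 nM and 588 in 4w0 nM. RBL1 lay near the filter signal of 50, at means of 56.1 in 1w0 nM and 36.8 in 1w50 nM. H3-3A, which encodes a replication-independent histone H3, was lower in 1w50 nM (-0.76, adjusted p = 0.0016) and in 1w5 nM (-0.51, adjusted p = 0.038), and at 4w50 nM its log2 difference was -0.22 (adjusted p = 0.23). Its mean was likewise higher in 1w0 nM, at 194, than in 4w0 nM, at 152. With 1w5 nM replicate 2 and 1w50 nM replicate 3 exchanged, an alternative chosen after seeing the data as is leaving both out, RB1 (-0.38, adjusted p = 0.23) and RBL1 (-0.24, adjusted p = 0.52) lost the call in 1w50 nM, and the other calls at 1 week stood. With both left out, RBL1 in 1w50 nM (adjusted p = 0.080) and H3-3A in 1w5 nM (adjusted p = 0.12) lost theirs. These genes were chosen after their values were seen, and the difference between weeks is not given for them.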
